A study of Mus musculus with 16 samples.

Results

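The genes described here build the contacts between neighbouring cells. They are the cadherins, protocadherins, claudins, connexins, catenins, ZO proteins, desmosomal proteins and the adhesion molecules Ceacam and Epcam on a cDNA array. Members were chosen by gene symbol from the probes with 1 symbol: symbols beginning with Cdh and a digit, Pcdh, Cldn, Gja, Gjb, Gjc, Tjp, Ctnn, Ceacam, Dsg or Dsc and a digit, and Ocln, Dsp, Jup and Epcam. Cdh16 was left out by the rule. This gave 33 genes of 9669, represented by 36 probes.

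The study compared kidney with liver in male wildtype C3HeB/FeJ mice aged 105 ± 5 days, an inbred strain without genetic change or treatment. On 7 arrays with 2 colours, RNA from the left kidney of mouse 1, 2 or 3 was hybridised together with a pool of 5 livers. On 9 arrays, RNA from the dorsal liver lobe of the same mice was hybridised with a pool of 5 kidneys. Arrays that repeat 1 mouse and organ were averaged, giving 3 kidney and 3 liver averages. The average of the kidney of mouse 3 rests on 1 array, and each of the others on up to 3. Every value below is a log2 ratio turned to kidney over liver, so that negative values mean more RNA in liver.

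Adherens junctions hold cells together through cadherins, whose cytoplasmic tails bind catenins and, through them, actin. Tight junctions seal the space between epithelial cells with claudins, which are anchored by ZO proteins and set what may pass between the cells, a property by which nephron segments differ. Gap junctions are channels of connexins, and desmosomes join intermediate filaments of adjacent cells. In liver, hepatocytes use these contacts to close off bile canaliculi.

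The direction of the ratio was read from organ markers, because the labels do not name the numerator and the order in the titles gave the opposite sign. With that reading, all 5 hepatocyte markers tested were higher in liver (median -6.80) and all 6 proximal tubule markers higher in kidney (median 5.04). If the titles gave the true order, every direction below would reverse while sizes and calls stayed. Albumin (Alb, -7.89) and the fibrinogen gene Fgb (-7.81) would then be higher in kidney, and Kap (6.05) in liver. The arrays of mouse 2 stood apart, although the labels state that ratios were scaled to a common median. Their median over all probes lay between -1.49 and -1.19, against -0.0027 to -0.0006 on the other 10 arrays, and the median over the 9047 genes tested was -0.48 as deposited and -0.01 after each array was centred on its median. Values are given as deposited unless stated otherwise, and centred values or values without mouse 2 follow for the genes where they are named. Bulk RNA cannot tell fewer cells of a type from less RNA per cell.

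Of the 33 genes, 30 had values in at least 2 mice per organ and were tested. Of these, 6 differed between the organs (limma, adjusted p under 0.05 over all genes): Pcdh18, Cdh2, Ctnnal1, Gja4, Ceacam1 and Tjp3. All 6 were higher in liver, where 8.88% of all genes tested were called. None was higher in kidney as deposited, against 5.56% of all genes, and 14.4% were called in either direction. The median of the 30 genes was -0.58, close to that of all genes, and 25 lay below 0. After centring, 12 of the 30 were called, 7 higher in liver and 5 in kidney, against 12.4% and 19.5% of all genes, or 32.0% in either direction. Without mouse 2, 26 were tested, with 6 called higher in liver and 4 in kidney, against 15.7% and 20.3%. With mouse 2 aligned to mice 1 and 3 by signal, 7 were higher in liver and 5 in kidney, against 17% and 20.4%. In the fit with mouse as a replicate block, 4 were called higher in liver (Pcdh18, Cdh2, Ctnnal1 and Gja4) and none in kidney, against 4.78% and 2.83%, or 7.6% in either direction. That fit gave the same SE, 0.454, to every member with values in all mice and organs, and 0.556 to those lacking an average. A call kept or lost there thus follows the size of the estimate and not the gene's own spread between mice. All 6 genes were also called after centring, which added Ceacam10 in liver and Pcdh15, Pcdh17, Cldnd1, Ctnna1 and Ctnnbip1 in kidney. Of these 12 calls, 7 held when centring and the replicate block were combined, and Ceacam1, Tjp3, Ceacam10, Pcdh15 and Pcdh17 lost theirs (adjusted p 0.208, 0.0567, 0.109, 0.173 and 0.181, limma).

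**Figure D1:**
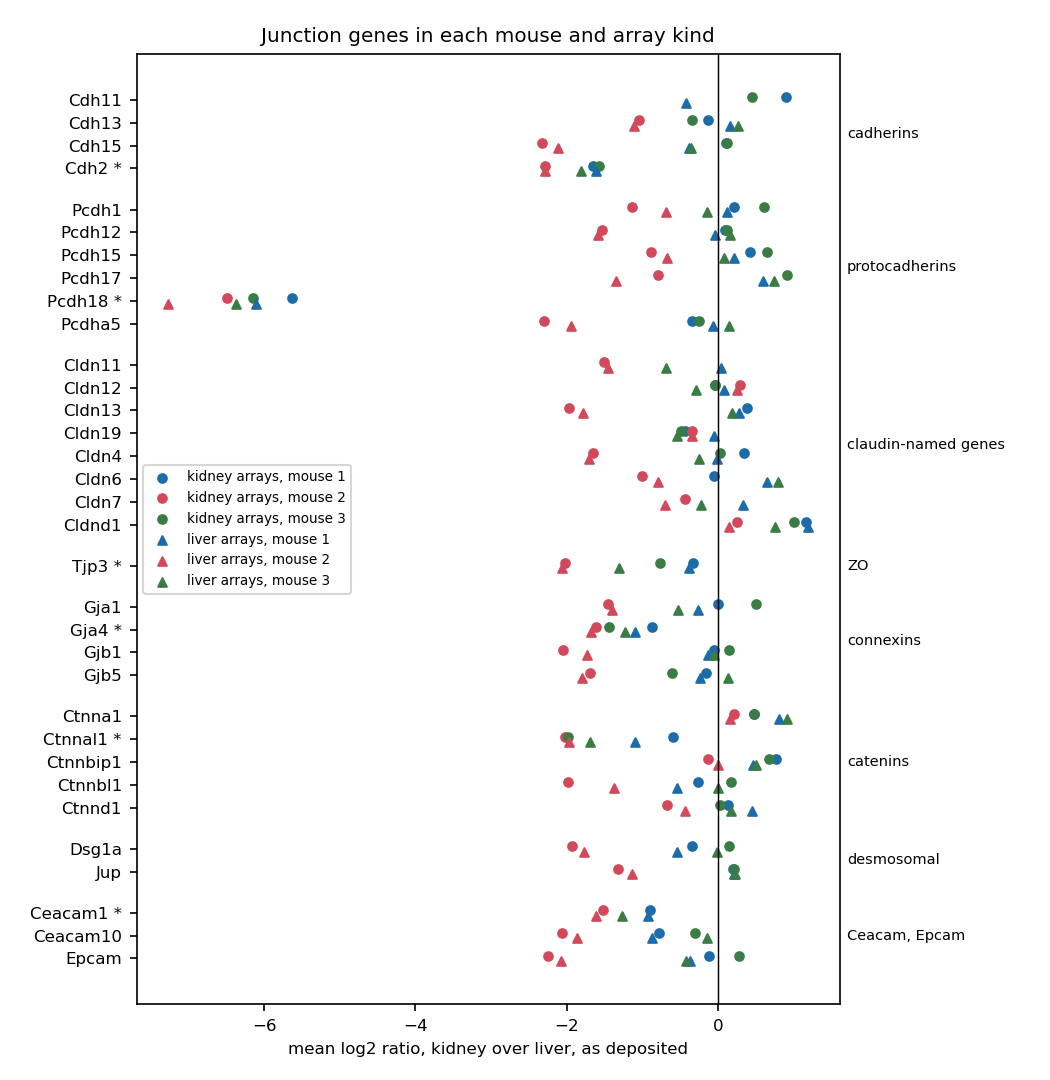
Mean log2 ratio of kidney over liver (horizontal axis, as deposited) of the 33 junction genes (vertical axis, by family) in each mouse and array kind, with circles for kidney arrays, triangles for liver arrays, colours for mice and an asterisk for a gene past the test. Pcdh18 lies at -5.63 or lower in all 6 averages, and mouse 2 (red) lies to the left of mice 1 and 3 in most genes.

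Promoter windows are shown for the genes called as deposited, all of them higher in liver. After centring, 5 other members were called higher in kidney, and their windows are not shown. They reach from 250 bases before to 50 bases after the annotated start, 5′ to 3′ on the gene's strand (RefSeq, GRCm38.p6), and 5 of the 6 called genes had an entry. All 5 lie on the minus strand. Capitals mark matches on either strand to 6 motifs. The TATA box was searched as TATAAA and the CCAAT box by those letters. The GC box was searched as GGGCGG and the nuclear receptor half-site as AGGTCA. The forkhead core was searched as TGTTTAC, and the HNF1 half-site was searched as GTTAAT. No marked matches overlap.
Pcdh18, chr3:49757267-49757566: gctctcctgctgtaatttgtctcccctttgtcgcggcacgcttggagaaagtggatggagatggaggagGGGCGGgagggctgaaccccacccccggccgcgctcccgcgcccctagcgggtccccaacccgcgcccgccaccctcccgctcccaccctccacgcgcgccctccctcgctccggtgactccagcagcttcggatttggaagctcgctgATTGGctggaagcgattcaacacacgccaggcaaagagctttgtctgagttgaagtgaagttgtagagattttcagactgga
Ctnnal1, chr4:56865162-56865461: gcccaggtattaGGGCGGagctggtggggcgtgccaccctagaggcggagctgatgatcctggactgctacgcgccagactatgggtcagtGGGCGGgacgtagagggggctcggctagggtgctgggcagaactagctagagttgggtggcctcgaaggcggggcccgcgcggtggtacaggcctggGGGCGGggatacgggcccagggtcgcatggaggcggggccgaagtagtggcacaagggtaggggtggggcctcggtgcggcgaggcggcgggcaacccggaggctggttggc
Gja4, chr4:127313990-127314289: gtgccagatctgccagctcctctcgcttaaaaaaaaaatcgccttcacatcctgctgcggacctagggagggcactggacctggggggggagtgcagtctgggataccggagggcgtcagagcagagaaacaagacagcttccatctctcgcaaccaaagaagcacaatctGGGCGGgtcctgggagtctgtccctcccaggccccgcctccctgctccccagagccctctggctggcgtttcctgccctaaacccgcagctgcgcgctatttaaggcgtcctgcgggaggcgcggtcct
Ceacam1, chr7:25477576-25477875: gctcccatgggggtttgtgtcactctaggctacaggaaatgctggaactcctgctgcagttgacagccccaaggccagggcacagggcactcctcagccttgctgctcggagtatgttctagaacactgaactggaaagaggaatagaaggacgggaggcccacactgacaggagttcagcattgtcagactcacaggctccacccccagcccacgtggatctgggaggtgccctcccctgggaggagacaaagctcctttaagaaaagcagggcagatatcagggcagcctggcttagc
Tjp3, chr10:81291532-81291831: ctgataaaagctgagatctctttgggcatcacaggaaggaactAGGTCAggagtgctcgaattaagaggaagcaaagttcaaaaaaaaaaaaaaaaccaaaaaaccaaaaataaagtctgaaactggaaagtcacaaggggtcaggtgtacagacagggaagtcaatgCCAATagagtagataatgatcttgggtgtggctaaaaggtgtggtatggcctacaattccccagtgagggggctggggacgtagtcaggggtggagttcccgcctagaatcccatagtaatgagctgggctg
Tjp3, second start, chr10:81291218-81291517: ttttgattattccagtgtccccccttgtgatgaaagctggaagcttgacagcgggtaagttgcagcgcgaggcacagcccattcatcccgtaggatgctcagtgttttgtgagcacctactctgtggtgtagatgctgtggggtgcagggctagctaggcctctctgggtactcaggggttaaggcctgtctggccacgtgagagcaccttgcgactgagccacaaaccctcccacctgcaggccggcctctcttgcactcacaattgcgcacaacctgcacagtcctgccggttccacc

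The GC box occurred 3 times in the Ctnnal1 window and once each in those of Gja4 and Pcdh18, and 35.7% of the 32851 windows in the table hold it. The CCAAT box occurred in Pcdh18, 32 bases before the start, and in the first Tjp3 window, against 37.4% of all windows. The nuclear receptor half-site was found in the first Tjp3 window, against 16.3%. The TATA box, the forkhead core and the HNF1 half-site, held by 13.6%, 3.65% and 7.10% of all windows, did not occur in these 6 windows. The windows of Ceacam1 and of the second Tjp3 start held none of the 6 motifs. Base composition also differed among the called genes. The Ctnnal1 window had 70.3% G and C and 24 CpG dinucleotides, that of Pcdh18 63% and 23, and that of Gja4 62% and 16. The Ceacam1 window had 57.3% and 3, the first Tjp3 window 45.3% and 3, and the second 57.3% and 9. All windows had medians of 52.7% and 7, and only the first Tjp3 window had less G and C than that. These genes thus have no motif of the set in common.

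Among the protocadherins, cadherin-like adhesion molecules without a catenin-binding tail, 1 of 6 genes was called. Pcdh18 had the largest difference of all junction genes. Its averages were -5.63, -6.49 and -6.15 on the kidney arrays of mice 1, 2 and 3 and -6.10, -7.26 and -6.37 on their liver arrays. All lie far below 0, and mouse 2 is the lowest in both array kinds. The estimate was -6.33 (SE 0.24, n = 3 mice per organ), or 80.6-fold higher in liver (limma, adjusted p 9.38e-07). Centred it was -5.88, without mouse 2 -6.06, and it was called in 18 of 18 alternatives of processing. This value rests on 1 probe, so no second probe of the gene bears on it. Markers of fibroblasts, stellate cells and smooth muscle, of which 8 were tested, had none called as deposited, with values between -1.10 and 0.66 and a median of -0.05, and 3 higher in kidney and 1 in liver after centring. All 5 hepatocyte markers tested were called higher in liver, and the part of either list in the Pcdh18 value was not tested.

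The other 5 protocadherins had estimates between -0.79 and 0.03 and did not pass. Pcdh15, a part of the tip links of hair cells, was at -0.03 (SE 0.27). Its averages were 0.43, -0.89 and 0.65 on kidney arrays and 0.21, -0.67 and 0.08 on liver arrays, with mouse 2 below 0 in both. Centred it was 0.42 (adjusted p 0.0361) and without mouse 2 0.34 (adjusted p 0.0499, limma), both higher in kidney. The centred call was lost with the replicate block. Pcdh17 was at 0.03 (SE 0.41) and centred at 0.62 (adjusted p 0.025), a call lost with the replicate block. It had values on 10 arrays, with 0.92 in the kidney of mouse 3, 0.60 and 0.74 in the livers of mice 1 and 3, and -0.79 and -1.35 in mouse 2. Mice 1 and 3 therefore lay above 0 and mouse 2 below. Pcdh1 (-0.17), Pcdh12 (-0.46), a protocadherin of endothelium, and Pcdha5 (-0.79) were below 0 as deposited. Centred, Pcdh1 was at 0.28, Pcdh12 at -0.01 and Pcdha5 at -0.34, none of them called. Pcdha5 belongs to a cluster of variable exons spliced to shared constant exons, so its probe may also bind other alpha protocadherins.

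Of 4 genes of classical and related cadherins, 3 were tested and 1 was called. Cdh2, N-cadherin, which mediates adhesion in hepatocytes beside E-cadherin and is also made in the proximal tubule, was higher in liver. Its averages were -1.65, -2.29 and -1.58 on kidney arrays and -1.61, -2.29 and -1.81 on liver arrays. The array kinds overlap, and mouse 2 is again the lowest in both. The estimate was -1.87 (SE 0.22), or 3.66-fold higher in liver (limma, adjusted p 0.000569). It was -1.42 centred (2.67-fold) and -1.66 without mouse 2, and called in 18 of 18 alternatives.

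Cdh15, M-cadherin of muscle, was at -0.82 (SE 0.40, adjusted p 0.167, limma). Its averages were near 0 in mice 1 and 3, from -0.38 to 0.12, and -2.32 and -2.11 in mouse 2. It was at -0.37 centred and at -0.13 without mouse 2, without a call. Cdh13, T-cadherin, which is held by a lipid anchor and lacks a cytoplasmic tail, was at -0.37 (SE 0.26), at 0.086 centred and at -0.014 without mouse 2, so that its sign turned with centring. Its 3 probes differed in sign. The probe with values on all 16 arrays gave 0.31 (SE 0.20), and those with values on 12 and 11 arrays gave -0.78 and -0.91, none past the test. Cdh11, a cadherin of mesenchymal cells, had values on 4 arrays and was not tested. They averaged 0.90 and 0.46 in the kidneys of mice 1 and 3 and -0.42 in the liver of mouse 1.

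Catenins and catenin-named genes had members on both sides, with 1 of 5 called. Ctnnal1, alpha-catulin, a relative of alpha-catenin, was higher in liver at -1.56 (SE 0.27), or 2.94-fold (limma, adjusted p 0.00516). Its averages were -0.59, -2.02 and -1.98 on kidney arrays and -1.10, -1.97 and -1.70 on liver arrays. Mouse 1 is thus the nearest to 0 in both array kinds, while mice 2 and 3 lie close together. Centred the value was -1.10 (adjusted p 0.00576) and without mouse 2 -1.34 (adjusted p 0.00463). The call was lost on kidney arrays alone and without mouse 3, where the estimate was -1.42 (adjusted p 0.0885, limma).

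Ctnna1, alpha-E-catenin, the link from the cadherin complex to actin, lay above 0 in every average. These were 0.47, 0.21 and 0.48 on kidney arrays and 0.80, 0.16 and 0.91 on liver arrays. As deposited the estimate was 0.50 (SE 0.21, adjusted p 0.133, limma) and did not pass. It was 0.96 centred (adjusted p 0.00487) and 0.67 without mouse 2 (adjusted p 0.00302), both higher in kidney. Ctnnbip1, an inhibitor that keeps beta-catenin from TCF factors, was at 0.38 as deposited (SE 0.22, adjusted p 0.227), 0.83 centred (adjusted p 0.00488) and 0.60 without mouse 2 (adjusted p 0.00477, limma). Its averages lay between 0.47 and 0.77 in mice 1 and 3 and at -0.13 and -0.0037 in mouse 2. Ctnnd1, p120-catenin, which holds cadherins at the membrane, was at -0.06 (SE 0.23) and 0.40 centred, without a call in either. Ctnnbl1, a nuclear protein of splicing complexes despite its name, was at -0.67 (SE 0.33) and -0.21 centred, also without a call.

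**Figure D2:**
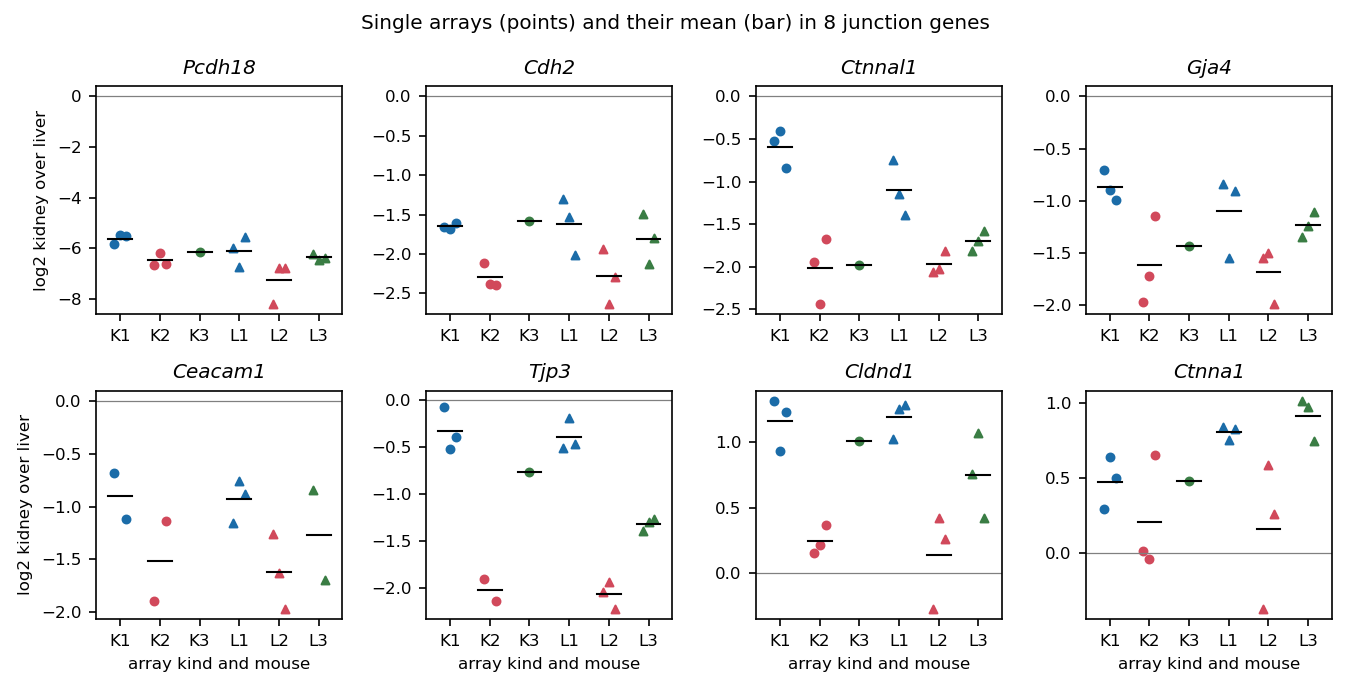
Log2 ratio of kidney over liver on single arrays (points) with the mean (bar) for the 6 called genes and for Cldnd1 and Ctnna1, by array kind (K, kidney arrays; L, liver arrays) and mouse number. The vertical scale differs between panels, and arrays of mouse 2 (red) have the lowest mean in all 8 panels for both array kinds.

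The claudin-named group had 8 members, of which 6 were tested and none was called as deposited. Cldnd1, a claudin domain protein, was the highest, and all its averages were above 0. They were 1.16, 0.25 and 1.01 on kidney arrays and 1.19, 0.14 and 0.75 on liver arrays, again lowest in mouse 2. The estimate of 0.75 (SE 0.24, adjusted p 0.075, limma) did not pass as deposited. It was 1.20 centred, or 2.30-fold higher in kidney (adjusted p 0.000429), 1.03 without mouse 2 (adjusted p 0.000841) and called in 9 of 18 alternatives.

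Cldn12, a claudin of calcium-transporting epithelia, gave 0.04 (SE 0.20). Its averages spanned -0.29 to 0.30, on both sides of 0, and mouse 2 was here the highest. Cldn19, which the thick ascending limb uses with claudin-16 to reabsorb magnesium, was at -0.37 (SE 0.20, adjusted p 0.198). It lay below 0 in every average, from -0.54 to -0.06. Centred it was at 0.08, but with mouse 2 aligned by signal at -0.12 and without mouse 2 at -0.38, without a call in any of these. So this kidney claudin had no kidney excess past the test. Cldn4, a claudin of the collecting duct and of other tight epithelia, was at -0.54 (SE 0.34) and at -0.09 centred. Its 1 probe was dim, with a ratio that recurred exactly on 66.7% of the arrays of mice 1 and 3 that gave a value. Its averages were -0.24 to 0.35 in mice 1 and 3 and -1.65 and -1.71 in mouse 2. Cldn13 (-0.61, SE 0.46) had the same split, with 0.19 to 0.38 in mice 1 and 3 and -1.97 and -1.78 in mouse 2, and was at -0.048 centred. Cldn6, a claudin of embryonic epithelia, was at -0.16 (SE 0.33) from values on 10 arrays. With mouse 2 aligned by signal it was at 0.42 (adjusted p 0.0401, limma). Cldn7 and Cldn11 had values on 10 and 6 arrays, lacked the kidneys of mice 1 and 3 and were not tested. Their averages lay between -0.70 and 0.34 and between -1.51 and 0.04.

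Tjp3, ZO-3, is a scaffold below the claudin strands and was the only ZO gene among the members. Its averages were -0.33, -2.02 and -0.76 on kidney arrays and -0.39, -2.06 and -1.31 on liver arrays. All are below 0, with mouse 2 far from mice 1 and 3. The estimate was -1.15 (SE 0.31), or 2.21-fold higher in liver (limma, adjusted p 0.0422), and -0.70 both centred (1.62-fold, adjusted p 0.00888) and without mouse 2 (adjusted p 0.0216). The call was lost in 7 of 16 alternatives, among them without mouse 1 (adjusted p 0.0769), without mouse 3 (0.156), kidney arrays alone (0.346), liver arrays alone (0.0512) and the replicate block (0.115). The probe was dim by the share of exactly recurring values, at 90.0%.

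Of 4 connexins 1 was called. Gja4, a connexin of arterial endothelium, was higher in liver, with averages of -0.87, -1.61 and -1.44 on kidney arrays and -1.10, -1.68 and -1.23 on liver arrays. These overlap between array kinds, and the nearest to 0 is the kidney of mouse 1. The estimate was -1.32 (SE 0.22), or 2.50-fold higher in liver (limma, adjusted p 0.00402), -0.87 centred (1.83-fold) and -1.16 without mouse 2. The call was lost without mouse 1 or mouse 3 and on kidney arrays alone, with adjusted p up to 0.159. Of 7 endothelial markers none was called, with values between -0.87 and 0.72 and a median of -0.37, and 1 was called higher in kidney after centring.

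Gjb1, the main gap junction protein of hepatocytes, was at -0.64 (SE 0.36, adjusted p 0.21, limma). Its averages lay between -0.14 and 0.14 in mice 1 and 3 and at -2.05 and -1.73 in mouse 2. Without mouse 2 the value was -0.02, so this hepatocyte connexin had no liver excess past the test in any alternative. Gja1, a connexin of many cell types, was at -0.53 (SE 0.30) from 12 arrays and at -0.08 centred. Gjb5, a connexin of skin, was at -0.73 (SE 0.32) and at -0.27 centred, and its 2 probes gave -0.72 and -0.77. In the annotation Gja4 and Gjb5 are separated by 2 protein-coding genes, and only the first was called, a difference that was not tested.

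Both desmosomal genes failed the test. Jup, plakoglobin, which serves desmosomes and adherens junctions, was at -0.27 (SE 0.30) and at 0.19 centred. Its averages lay between 0.21 and 0.23 in mice 1 and 3, and -1.32 and -1.14 in mouse 2. Dsg1a, a desmoglein of the epidermis with near-identical neighbours, was at -0.74 (SE 0.34) and at -0.29 centred. Of 4 markers of skin and squamous epithelium none was called, with values between -0.80 and -0.11.

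All 3 genes of the last group lay below 0, and 1 was called. Ceacam1, an adhesion molecule of bile canaliculi that also takes part in insulin clearance, had averages of -0.90 and -1.51 in the kidneys of mice 1 and 2 and -0.93, -1.62 and -1.27 in the livers of mice 1, 2 and 3. The kidney array of mouse 3 gave no value. All 5 averages are below 0, with mouse 2 the lowest in both array kinds. The estimate was -1.24 (SE 0.25), or 2.36-fold higher in liver (limma, adjusted p 0.0165), and -0.69 centred (adjusted p 0.0328). It lost the call with the replicate block (adjusted p 0.19), and without mouse 2 too few averages were left to test it. Its probe may also bind close relatives in the family.

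Ceacam10 was at -1.003 (SE 0.31, adjusted p 0.0708, limma) and missed the threshold. Its averages were -0.78, -2.06 and -0.31 on kidney arrays and -0.87, -1.86 and -0.15 on liver arrays. After centring it was at -0.55 (adjusted p 0.0183) and without mouse 2 at -0.53 (adjusted p 0.0404), both higher in liver, and the centred call was lost with the replicate block. Epcam, an adhesion molecule of simple epithelia that in liver marks bile ducts, was at -0.83 (SE 0.38, adjusted p 0.159, limma). It was between -0.43 and 0.28 in mice 1 and 3 and at -2.25 and -2.08 in mouse 2, and at -0.37 centred and -0.16 without mouse 2, without a call. Its 1 probe was dim by the share of exactly recurring values, at 60%. Of 4 bile duct markers Cftr (1.37) was higher in kidney and Sox9 (-1.03) in liver.

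**Figure D3:**
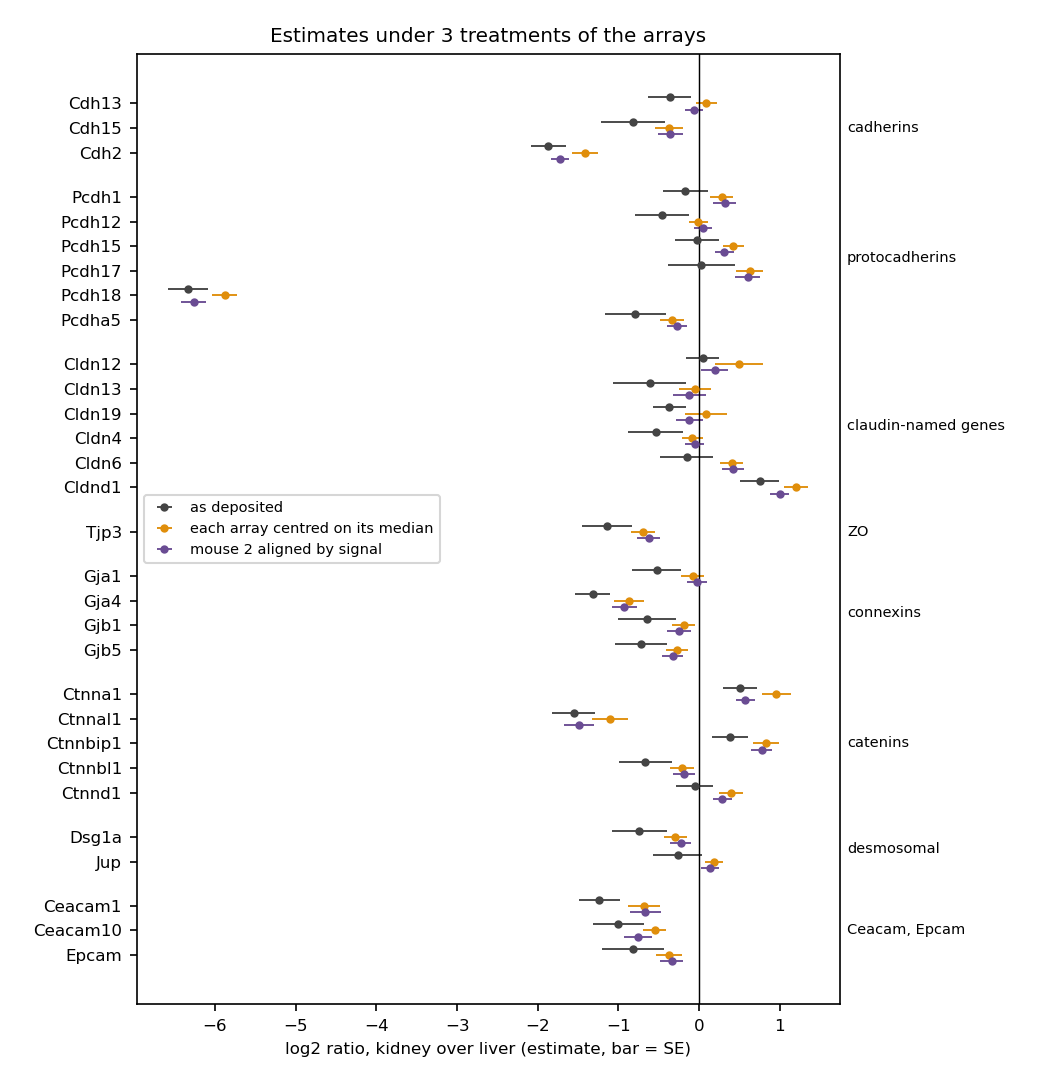
Estimated log2 ratio of kidney over liver (horizontal axis, bar = SE) of the 30 tested junction genes under 3 treatments of the arrays. Centring moved every gene towards kidney, and Pcdh18, Cdh2, Ctnnal1, Gja4, Ceacam1 and Tjp3 stayed below 0 under all 3 treatments.

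Kidney arrays minus liver arrays differed by a median of 0.12 in absolute size over the 30 genes and by at most 0.75. Without a block, no member and none of all 9047 genes was called for array kind, and 16 genes had an unadjusted p under 0.05 (limma), in a fit that does not use the pairing by mouse. Within mice, again no member was called, against 0.1% of all genes. Of the members only Pcdh18 had an unadjusted p under 0.05 there (0.0233, adjusted p 0.624, limma), against 7.95% of all genes. Its kidney arrays were higher by 0.48, 0.78 and 0.22 in mice 1, 2 and 3. Pcdha5 differed by -0.28, -0.36 and -0.39 (adjusted p 0.625, limma). Of 26 members with values in all mice, 6 had the same sign in each, against 31% of all such genes. Over the members the median SD was 0.248 between hybridisations of the same RNA and 0.807 between mice of the same organ. The second value includes the shift of the mouse 2 arrays and is not spread between animals alone.

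Mouse 2 lay below the mean of mice 1 and 3 in 28 of the 30 genes, by a median of 1.35. Cldn12 and Cldn19 were the other two. The shift went with how often a gene's ratio was exactly equal to that of other probes of the array, as happens when both intensities are small integers. The 6 members with a share up to 10% had a median shift of -0.64, the 12 between 10% and 50% one of -1.28, and the 9 dim members above 50% one of -1.64. In the same order, the median SD between mice was 0.45, 0.76 and 0.95. Of these 3 classes 3, 1 and 1 genes were called. The sixth called gene, Ceacam1, had too few values for a share. The dim members were Pcdh1, Pcdh12, Pcdha5, Cldn4, Tjp3, Gja1, Ctnnbl1, Dsg1a and Epcam, and a missing call in them does not show equal RNA in both organs. Over all probes the shift on kidney arrays went from -0.13 at the lowest shares to -1.67 at the highest. Centring took the median of each mouse 2 array, between -1.49 and -1.19, off all its probes alike, which is more than the shift at the lowest shares. In the 6 members with a share up to 10%, centred values lay further towards kidney than values with mouse 2 aligned by signal. Ctnna1, for example, was at 0.96 centred and 0.57 aligned. A ratio far from most others can fail to recur at any signal, so the share is not a measure of signal alone.

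**Figure D4:**
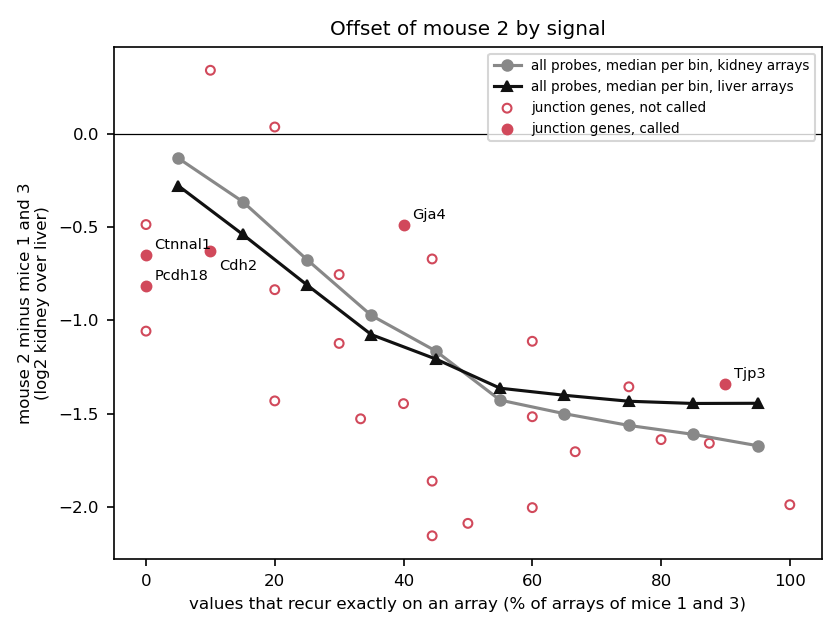
Mouse 2 minus mice 1 and 3 (vertical axis, log2 kidney over liver) against the share of exactly recurring values (horizontal axis, %) for the tested junction genes with a share, with the medians of all probes per bin as lines. The shift is small at low shares and reaches -1.67 (kidney arrays) and -1.45 (liver arrays) at high ones, and the called genes Pcdh18, Cdh2 and Ctnnal1 lie at shares up to 10%.

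Other junction genes, taken from lists outside the symbol rule, also went both ways. So did all genes tested, of which 8.88% were called higher in liver and 5.56% in kidney. Of 18 nectins, polarity proteins and adherens junction adaptors tested, 2 passed the test, Nectin4 (-1.23) and Nectin1 (-1.15), both with more RNA in liver. Nectins are immunoglobulin-like partners of cadherins, and Afdn, their link to actin, was at -1.001 without a call. Of 14 further tight junction proteins 1 passed, the scaffold Magi3 (-1.31), with more RNA in liver. Of 6 plakophilins, plakins and keratins, the keratin Krt18 (-1.87), a hepatocyte filament protein, was higher in liver and Pkp4 (0.94), a p120-like armadillo protein, in kidney. Of 10 other members of the cadherin superfamily, Celsr1 (2.02), a planar cell polarity cadherin, and the calsyntenin Clstn1 (1.40) were higher in kidney. With the replicate block Nectin1, Nectin4, Magi3 and Pkp4 lost the call (adjusted p 0.114, 0.0777, 0.0865 and 0.232, limma), while Krt18, Celsr1 and Clstn1 kept it. Without mouse 1 or mouse 3, Celsr1 (adjusted p 0.0979 and 0.0517) and Clstn1 (0.131 and 0.0992) were not called, and on kidney arrays alone neither Krt18 (0.0858) nor Clstn1 (0.0941) was. Celsr1 reached 2.36 to 2.84 in mice 1 and 3 and 0.72 and 1.01 in mouse 2, always above 0. The 2 pannexins were not called. In the order given, the medians of these 5 lists were -0.59, -0.39, -0.18, -0.43 and -0.37. Centred arrays moved them to -0.07, 0.06, 0.28, 0.04 and 0.09. Kidney calls then numbered 3, 3, 2, 3 and 0, against 19.5% of all genes, and liver calls 4, 2, 1, 0 and 0, against 12.4%.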

How the data were processed

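The deposited values are log2 ratios of 16 two-colour cDNA arrays. Per the labels, the authors scanned with a GenePix 4000A, read mean intensities in GenePix Pro 3.0, subtracted background and scaled the ratios of an array to a common median, which the arrays of mouse 2 do not have. The numerator and log base are not given in the sources used here, and base 2 was taken from the spacing of recurring values. Of 20419 probes, 11723 had 1 gene symbol. Probes of a gene and then hybridisations of 1 mouse and organ were averaged, and the 6 averages were fitted with limma 3.58.1 (R 4.3.3) on a mean and array kind, for genes measured in 2 or 3 mice of each organ, with Benjamini-Hochberg adjustment over 9047 genes and a threshold of 0.05. The number of mice limits the precision. Kidney and liver came from the same mice, so the replicate number pairs them. Sample over pool, the deviations of a mouse's kidney and liver averages from their organ means correlated at -0.575, -0.789 and -0.568 over 7514 genes. These deviations hold the shift of the mouse 2 arrays, also through the organ means, and so do not show pairing by animal alone. Without the block, SE and p tend to be too small. The fit with the block shares its SE between members, so its p was the smaller for large estimates. Pcdh18 had adjusted p 2.09e-41 with the block and 9.38e-07 without it, and Celsr1 0.000226 and 0.00513 (limma). On liver arrays alone the members also shared their SE, at 0.443. Replicates are 3 mice, and hybridisations are technical. Every member was named, and of the other lists those past the test. Members and lists were chosen with earlier results of these data known. Alternatives were centring, aligning mouse 2 by signal, scaling, leaving out mice, single array kinds, blocks, filters and probe choice. Both forms of the replicate block on values as deposited gave the same results. For the 31 members with 1 probe the probe choices use the same values. Counts of alternatives are thus not counts of independent checks. The centred fit with a block and the test of array kind within mice were chosen after seeing the data. The fit was tested on simulated averages drawn independently of each other. They held neither the correlation within mice nor the shift of mouse 2, so that test does not cover these.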

Additional observations from a re-analysis of the deposited data

How the results depend on the processing

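Members called higher in liver numbered 6 as deposited, 2 to 6 when 1 mouse was left out (3 without mouse 1 and 2 without mouse 3, against 4.2% and 4.12% of all genes), 2 on kidney arrays alone (3.14%), 5 on liver arrays alone (5.77%), 7 with arrays scaled to one spread (16.8%) and 8 with single arrays (16.0%). Genes higher in kidney numbered 0 as deposited and 0 to 4 without 1 mouse. They numbered 5 when centred, 5 with mouse 2 aligned by signal, 3 when centred with a replicate block (Cldnd1, Ctnna1 and Ctnnbip1, against 11.9% of all genes), and 1 each with arrays scaled to one spread (7.39%), single arrays (6.67%), values on every array (10.03%), genes not dim (14.1%), or a trended and robust fit (7.79%). The replicate block alone left 4 calls in liver, Ceacam1 (adjusted p 0.19, limma) and Tjp3 (adjusted p 0.115) losing theirs. The test of array kind called no member under any alternative run, including the fit within mice, which was chosen after seeing the data.

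Direction turned for 11 members that were not called as deposited. Centred, with and without the block, Cdh13 was at 0.086, Pcdh1 at 0.282, Pcdh15 at 0.421, Cldn19 at 0.084, Ctnnd1 at 0.397 and Jup at 0.187, and Cldn6 was at 0.403 without and 0.369 with it. With mouse 2 aligned, Pcdh1 was at 0.314, Pcdh12 at 0.047, Pcdh15 at 0.31, Cldn6 at 0.416, Ctnnd1 at 0.286 and Jup at 0.13. Scaled, Pcdh1 was at 0.111, Pcdh15 at 0.328, Cldn12 at -0.046, Cldn6 at 0.266, Ctnnd1 at 0.163 and Jup at 0.069. With 1 mouse left out, Pcdh1 ranged from -0.371 to 0.201, Pcdh12 from -0.764 to 0.084, Pcdh15 from -0.229 to 0.343, Cldn12 from -0.073 to 0.145, Cldn4 from -0.893 to 0.029, Ctnnd1 from -0.23 to 0.196 and Jup from -0.51 to 0.217, turning without mouse 2. Pcdh17 was at -0.123 without mouse 1 and with the block, and at -0.007 on liver arrays alone, where Cldn6 was at 0.217 and Ctnnd1 at 0.062. Pcdh15 was at 0.063 on kidney arrays alone, and Cdh13 at 0.311 from its least recurring probe. The cause was not tested. Dim probes, by the share of recurring values, moved most with mouse 2, which limits what small differences show.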

Other observations

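Some probes listed under several symbols include a claudin and fall outside the symbol rule. They cannot be assigned to either gene, and no test was run on them. The probe listed under Cldn10 and Dzip1 had a mean log2 ratio of kidney over liver of 4.87, with averages of 4.81, 3.68 and 4.64 on kidney arrays and 5.66, 4.64 and 5.78 on liver arrays. The probe listed under Cldn3 and Wbscr25 had a mean of -3.98, with averages of -3.15, -4.37 and -4.34 on kidney arrays and -3.53, -3.67 and -4.83 on liver arrays. Claudin-10 is known from the nephron and claudin-3 from hepatocytes and bile ducts. The 2 probes shared by Cldn22 and Wwc2 had means of 0.30 and -0.74, and those shared by Cldn17 and Ryr1 -1.77, from 3 arrays, and -0.71.

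The remaining marker lists gave these counts as deposited, where 5.56% of all genes tested were called higher in kidney and 8.88% in liver. Of 5 collecting duct markers 4 were higher in kidney, and of 2 podocyte markers 2. Of 3 genes listed for loop and distal tubule, Umod (3.87) was higher in kidney and Kng1 (-2.67) in liver. Of 3 Kupffer cell and macrophage markers 2 were higher in liver. None of 4 adrenal and none of 3 pancreas markers was called.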
